A study of Mus musculus with 18 samples.

Results

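Messenger RNAs of cytokines and feedback regulators are short-lived because proteins that bind their AU-rich and stem-loop elements hand them to decay enzymes or protect them from those enzymes. The 8 genes described here encode such proteins and one kinase that controls them: the CCCH zinc-finger decay factors Zfp36 (tristetraprolin), Zfp36l1 and Zfp36l2, the endoribonuclease gene Zc3h12a (Regnase-1), the RNA-binding protein genes Elavl1 (HuR), Hnrnpd (AUF1) and Khsrp (KSRP), and Mapkapk2 (MK2). They were chosen by symbol, as all probe sets whose platform annotation gave one of the 8 symbols. That gave 21 of 45101 probe sets, for 8 of the 18193 genes with a probe set of a single symbol. Of these 21, 19 passed the filter on dim signal and 2 did not, 1 of Elavl1 and 1 of Hnrnpd.

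In macrophages, tristetraprolin is made in response to LPS, binds AU-rich elements of mRNAs such as that of Tnf and recruits the CCR4-NOT deadenylase. MK2, activated by the p38 MAP kinase, phosphorylates tristetraprolin and holds it inactive, so that the protein accumulates while its targets are translated. HuR competes for AU-rich elements and stabilises the mRNAs it binds, and Regnase-1 cuts stem-loops of mRNAs of inflammatory genes. IL-10 restrains macrophage activation through STAT3, and Zfp36 is a known STAT3-regulated gene.

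The arrays came from bone-marrow-derived macrophages of IL-10-/- mice, grown for 7 days with CSF-1 from L-cell medium. They then received LPS, which activates Toll-like receptor 4, at 100 ng/ml without CSF-1 for 10, 20 or 30 min. In the other arm IL-10 was given together with the LPS, at a dose of 10 ng/ml. All 6 groups carried the IL-10 deficiency, no untreated cells and no wild-type cells were analysed here, and the age and sex of the mice were the same but are not given. Each group had 3 arrays, from 3 independent experiments done in sequence and called experiments 1, 2 and 3. The signal is a linear array intensity. Differences are on the log2(signal + 16) scale and come from limma fitted to all 27110 tested probe sets on 18 arrays, with Benjamini-Hochberg adjustment over all of them and a threshold of 0.05. The fit without a block counts differences between experiments as spread, and the fit with the experiment as a block removes them. In bulk RNA, a change in the share of a cell type and a change of RNA per cell cannot be told apart.

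All 8 macrophage markers on the array (Csf1r, Cd68, Itgam, Cd14, Adgre1, Lyz2, Fcgr1 and Mertk) reached the array's median signal on all 18 arrays. None of 4 lymphocyte, 2 erythroid or 3 dendritic markers did. Of the granulocyte markers 4 of 5 did (Mpo, Camp, Ltf and Ngp) and of the stromal markers 3 of 4 (Col1a1, Col1a2 and Col3a1), with summed signals of 1164 to 2276 and 1578 to 3602 against 106046 to 189889 for the macrophage markers. The ranges of the granulocyte sum overlapped between all 6 groups, from 1220 to 1896 with LPS at 10 min and from 1227 to 2087 with LPS plus IL-10 at 30 min. Those of the stromal and macrophage sums did not overlap everywhere. The stromal sum was 2196 to 2626 with LPS plus IL-10 at 10 min and 1578 to 2175 with LPS at 30 min. The macrophage sum was 118842 to 123890 with LPS plus IL-10 at 20 min, below LPS at 20 min (133425 to 189889) and LPS plus IL-10 at 30 min (132586 to 143263). The part of these markers in the results was not tested. At 20 min of LPS alone, 2 arrays (experiments 2 and 3) differed from the rest, with lower quartiles of signal of 38.6 and 34.0 against 21.8 to 31.0 elsewhere. The differences of Zfp36, Zfp36l2 and Mapkapk2 that rest on LPS alone at 20 min are therefore given with and without both.

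The sequences before the start sites of Zfp36, the gene that moved most here, and of Zfp36l1 and Zc3h12a, the genes next in size of change, are shown to place motifs of factors that LPS and IL-10 activate. They are from RefSeq, build GRCm38.p6, the 250 bases before the annotated start on the minus strand, 5′ to 3′, at chr7:28379229-28379478, chr12:80113014-80113263 and chr4:125127882-125128131. Capitals mark motif matches.
Zfp36: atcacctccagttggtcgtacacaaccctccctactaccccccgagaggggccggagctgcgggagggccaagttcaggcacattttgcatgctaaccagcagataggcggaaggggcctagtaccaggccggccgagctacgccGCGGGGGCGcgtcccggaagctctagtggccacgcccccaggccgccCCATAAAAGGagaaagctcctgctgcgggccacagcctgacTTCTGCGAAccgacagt
Zfp36l1: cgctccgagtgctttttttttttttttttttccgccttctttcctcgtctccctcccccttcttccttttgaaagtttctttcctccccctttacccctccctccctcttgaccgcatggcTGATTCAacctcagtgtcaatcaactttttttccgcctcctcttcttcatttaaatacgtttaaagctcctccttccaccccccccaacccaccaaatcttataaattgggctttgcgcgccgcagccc
Zc3h12a: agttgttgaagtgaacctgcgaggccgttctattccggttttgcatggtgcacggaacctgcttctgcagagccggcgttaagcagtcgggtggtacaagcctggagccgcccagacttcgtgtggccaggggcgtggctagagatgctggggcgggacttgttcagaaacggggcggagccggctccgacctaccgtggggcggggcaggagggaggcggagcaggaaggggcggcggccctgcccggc
In all, 6 motifs were searched on both strands: the CArG box of serum response factor, the EGR motif GCGNGGGCG, the STAT palindrome TTCNNNGAA, the NF-kB motif, the AP-1 motif TGANTCA and the CRE TGACGTCA. The Zfp36 window held an EGR match (GCGGGGGCG, 105 to 97 bases before the start), a CArG match (CCATAAAAGG, 58 to 49 bases before it) and a STAT match (TTCTGCGAA, 17 to 9 bases before it), which share no base with each other. Of 32851 windows of the same length, 4.70% held the EGR motif, 1.47% the CArG box and 7.02% the STAT palindrome. The Zfp36l1 window held an AP-1 match (TGATTCA, 129 to 123 bases before the start), a motif found in 6.75% of windows. No match to the 6 motifs was found in the windows of Zc3h12a, Elavl1, Hnrnpd, Khsrp or Mapkapk2, where the NF-kB motif had 3.90% and the CRE 1.55% of all windows. A match is a run of letters and not a measured binding site. Windows were matched by symbol for 7 of the 8 genes, with Zfp36l2 the other.

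Zfp36 was the 1 member that rose with time, under both treatments, in the fit with the experiment as a block. With LPS alone its signal was 3732, 3628 and 2010 at 10 min in experiments 1, 2 and 3, 4510, 5463 and 2618 at 20 min, and 6387, 9430 and 4772 at 30 min. Every experiment was higher at each later time, and experiment 3 was the lowest at all 3 times. The 30 min arrays lay above the 10 min arrays without overlap, while the 20 min arrays overlapped both. The mean went from 3123 ± 966 to 6863 ± 2365 (signal ± SD, n = 3), a fitted difference of 2.19-fold. The log2 difference was 1.13, by 0.77, 1.37 and 1.24 in the 3 experiments. Zfp36 rose in limma's blocked fit (SE 0.13, adjusted p = 0.000242), and the fit without a block did not call it (SE 0.35, adjusted p = 1.00).

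With LPS plus IL-10 the Zfp36 signal was 4279, 3518 and 2340 at 10 min, 6103, 8027 and 3983 at 20 min, and 11203, 10848 and 7158 at 30 min. Every experiment was again higher at each later time, and the 10 and 30 min arrays did not overlap. The mean went from 3379 ± 977 to 9736 ± 2240 (n = 3), a fitted difference of 2.90-fold. The log2 difference was 1.54, by 1.39, 1.62 and 1.61 in the 3 experiments. Zfp36 rose in the blocked fit (SE 0.13, limma adjusted p = 2.40e-06), and the fit without a block did not call it (SE 0.35, adjusted p = 0.429).

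**Figure D1:**
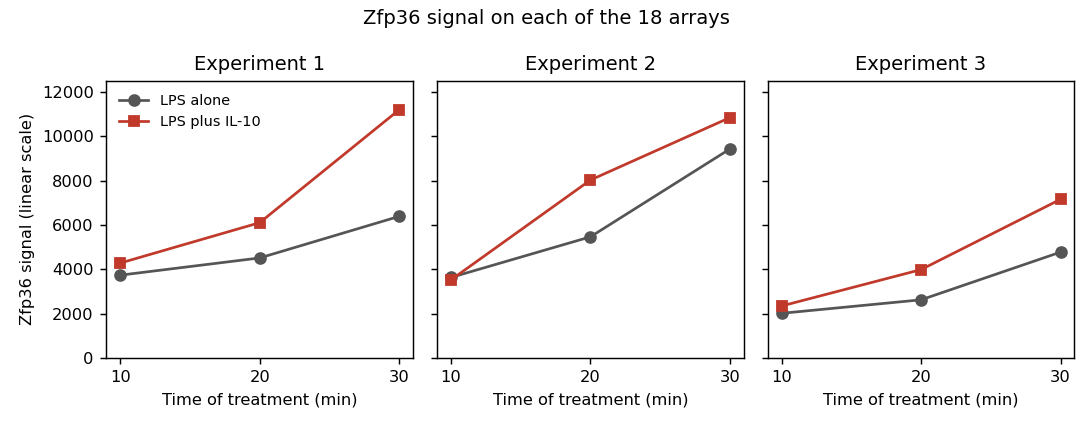
Signal of the Zfp36 probe set (linear scale from 0) against time of treatment in min, 1 panel per experiment, with 1 point per array and lines joining the arrays of a treatment. All 6 lines go up at each step, and the values at 30 min are 6387, 9430 and 4772 with LPS alone and 11203, 10848 and 7158 with LPS plus IL-10 in experiments 1, 2 and 3.

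Averaged over the treatments, Zfp36 was 2.52-fold higher at 30 than at 10 min. The log2 difference was 1.33 (95% interval 1.14 to 1.53 with the block, 0.81 to 1.86 without), and limma's adjusted p was 8.90e-08 with the block and 0.0663 without. Without the block, leaving out experiment 3, or the LPS 20 min array of experiment 3, made the call (adjusted p = 0.0231 and 0.0440). That array is not compared in this difference, and leaving it out changed only the estimate of the spread and the adjustment. Zfp36 was 16th from the top in size among the 12527 genes with a tested probe set. In this average 1 of the 19 tested member probe sets rose with the block, that of Zfp36, against 0.35% of all tested probe sets, and none fell against 0.0848%. Without the block none was called, where 0.0553% of all rose and 0.00369% fell. At an unadjusted p under 0.05 there were 2 of 19 members without the block and 6 with it, against 2.72% and 7.16% of all probe sets. Of these 6, the Hnrnpd probe set was lower at 30 min. Those of Zfp36 and Zc3h12a, both of Zfp36l1 and a dim one of Elavl1 were higher.

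The calls were also counted by treatment over the 19 member probe sets. With LPS alone 1 (Zfp36) rose in the blocked fit, against 0.107% of all, and none fell against 0.00369%. Without the block none was called, against 0.0184%. At an unadjusted p under 0.05 there was 1 member without the block (1.35% of all) and 3 with it (3.71%). For LPS plus IL-10, 1 (Zfp36) rose in the blocked fit, against 0.195%, and none fell against 0.0295%. Without the block none was called, against 0.0443%. At an unadjusted p under 0.05 there was 1 member without the block (2.31% of all) and 5 with it (5.8%). By overlap of the groups, 2 of 19 members were higher at 30 than at 10 min on every array with LPS alone (2.03% of all probe sets) and 1 of 19 with LPS plus IL-10 (2.21%), Zfp36 in both. The other was a dim Elavl1 probe set, at 118, 107 and 122 and then at 166, 175 and 138 with LPS alone. None was lower on every array (3.42% and 4.36% of all).

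Over the single steps of the time course the differences in Zfp36 were smaller. In cells given LPS plus IL-10 it rose by 0.82 from 10 to 20 min in the blocked fit (SE 0.13, limma adjusted p = 0.0224). It was 1 of 19 members against 0.0332% of all probe sets, and without the block none was called against 0.0111%. At an unadjusted p under 0.05 there was 1 member without the block (1.52% of all) and 3 with it (5.44%). That call was lost when experiment 1, 2 or 3 was left out (adjusted p = 0.175, 1.00 and 0.146). From 20 to 30 min the log2 difference was 0.72 (adjusted p = 0.0795 with the block), higher in 3 of 3 experiments, where 0.0184% of all probe sets rose. With LPS alone the differences were 0.41 from 10 to 20 min and 0.72 from 20 to 30 min (adjusted p = 0.414 and 0.0723 with the block), each higher in 3 of 3 experiments and neither called, where 0.0148% of all probe sets rose at each step and 0.00369% fell at the second. No member was called at either step. With the block 2 and 3 of 19 members had an unadjusted p under 0.05, near the shares of all probe sets (9.17% and 13.1%), and without it none had (3.32% and 4.81%). Without both deviating LPS arrays, leaving 1 array at 20 min, they were 0.39 and 0.74 in the blocked fit (adjusted p = 0.976 and 0.402). In the fit without a block, leaving out the array of experiment 2 gave 0.19 and 0.94, and leaving out that of experiment 3 gave 0.72 and 0.41, none of them called.

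The Zfp36 signal with IL-10 lay above that without it from 20 min on, by less than the test could call. At 10 min the log2 difference was 0.12, by 0.20, -0.04 and 0.22 in experiments 1, 2 and 3. At 20 min it was 0.53, by 0.44, 0.55 and 0.60, and at 30 min 0.53, by 0.81, 0.20 and 0.58. The sign was thus positive in 2 of 3 experiments at 10 min and in 3 of 3 at both later times. The groups overlapped at every time. With the block the adjusted p was 1.00, 0.514 and 0.607 at 10, 20 and 30 min, and without it 1.00 at all 3. Without both deviating LPS arrays the difference at 20 min was 0.55 with the block (adjusted p = 0.701) and 0.36 without it. Leaving out only the array of experiment 2 or of experiment 3 gave 0.75 and 0.22 without the block, and 0.60 and 0.47 with it. Averaged over the times the difference was 0.40, a 1.32-fold higher signal, with 95% intervals of 0.24 to 0.55 with the block and -0.03 to 0.82 without. Limma's adjusted p was 0.118 and 1.00. Without both deviating arrays the average was 0.40 with the block (adjusted p = 0.291) and 0.34 without it. These intervals are for 1 probe set and are not adjusted for the number tested. The difference between treatments at 30 min exceeded that at 10 min by 0.41 (95% interval 0.02 to 0.80 with the block, adjusted p = 1.00). The larger rise with IL-10 was therefore not shown to differ from that with LPS alone. No member probe set was called in the comparisons of LPS plus IL-10 with LPS. With the block 0.0184% of all probe sets rose at 20 min, 0.0443% at 30 min, 0.0332% in the average over times and 0.0184% in the change over time. Without it these were 0.00738%, 0.0111%, 0.0111% and 0.00369%, and none fell. At an unadjusted p under 0.05 there were 5 of 19 members in the average with the block, against 4.21% of all. Those of Zfp36, Khsrp and Mapkapk2 were higher with IL-10, and those of Zfp36l2 and a dim Elavl1 probe set were lower. Without the block there was 1, the dim Elavl1 probe set, against 1.56% of all. At 10, 20 and 30 min there were 0, 3 and 2 with the block, against 3.58%, 7.81% and 2.81%. The dim Elavl1 probe set, the dimmest tested of that gene, was among those at 30 min. It passed the filter only through arrays with LPS alone, so its place in these counts is not independent of the filter.

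Zfp36l1, a paralog that also recruits deadenylases to AU-rich mRNAs, had its highest signals in experiment 2. Its brighter probe set read 2132, 4341 and 2544 at 10 min, 2325, 4304 and 3043 at 20 min, and 2894, 4597 and 2953 at 30 min with LPS alone. Under LPS plus IL-10 it read 2218, 3877 and 2537, then 2554, 4832 and 3018, then 2997, 4870 and 3131. Each experiment was higher at 30 than at 10 min under both treatments, but the groups overlapped, since experiment 2 at 10 min exceeded experiments 1 and 3 at 30 min. The log2 difference from 10 to 30 min was 0.24 with LPS alone and 0.35 with LPS plus IL-10. Averaged over the treatments it was 0.30 (95% interval 0.16 to 0.44 with the block), and limma's adjusted p was 0.0575 with the block and 1.00 without. Without the LPS 20 min array of experiment 3 it passed in the blocked fit (adjusted p = 0.0253). That array is not compared in this difference, and leaving it out changed only the estimate of the spread and the adjustment. The dimmer Zfp36l1 probe set differed by 0.44 on average (0.14 to 0.74 with the block, adjusted p = 0.381).

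Zc3h12a, whose RNase product degrades mRNAs such as that of Il6, had a lower signal at 10 min than at 30 min in every experiment. With LPS alone its brighter probe set read 428, 771 and 256 at 10 min, 482, 777 and 513 at 20 min, and 521, 916 and 538 at 30 min. Under LPS plus IL-10 it read 381, 570 and 345, then 499, 857 and 368, then 524, 895 and 489. Experiment 2 was the highest in all 6 groups, and the 10 and 30 min groups overlapped under both treatments. The log2 difference was 0.52 with LPS alone and 0.52 with LPS plus IL-10. Averaged over the treatments it was 0.52 (95% interval 0.28 to 0.76 with the block), with a limma adjusted p of 0.0549 with the block and 1.00 without. It passed in the blocked fit without the LPS 20 min array of experiment 3 (adjusted p = 0.0300). That array is not compared in this difference, and leaving it out changed only the estimate of the spread and the adjustment. The second Zc3h12a probe set, at 93.8 to 184, differed by 0.25 (-0.14 to 0.63, adjusted p = 0.871 with the block). Over the times LPS plus IL-10 differed from LPS by -0.07 (-0.26 to 0.13 with the block).

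Zfp36l2, the third paralog, had a signal of 5654 to 10692 on its brightest probe set and no common direction over time. With LPS alone it read 7718, 5654 and 9249 at 10 min and 10400, 6824 and 7960 at 30 min in experiments 1, 2 and 3. With LPS plus IL-10 it read 8361, 5738 and 8545 and then 7541, 6336 and 7916. The difference averaged over the treatments was 0.06 (-0.12 to 0.24 with the block). Over the times the signal with IL-10 was lower in 3 of 3 experiments, by a log2 difference of -0.17 (-0.31 to -0.02 with the block), and limma's adjusted p was 1.00 in both fits. At 20 min the difference was -0.32, where 2 of the 3 LPS arrays are the deviating ones. Without both it was -0.29 with the block and -0.45 without it, and without that of experiment 3 alone -0.22 and -0.16. Over the times it was -0.16 with the block and -0.21 without it when both were left out. The other Zfp36l2 probe sets were dim, at 19.6 to 249 and 17.2 to 152, and reached the array's median on 11 and 5 of 18 arrays.

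**Figure D2:**
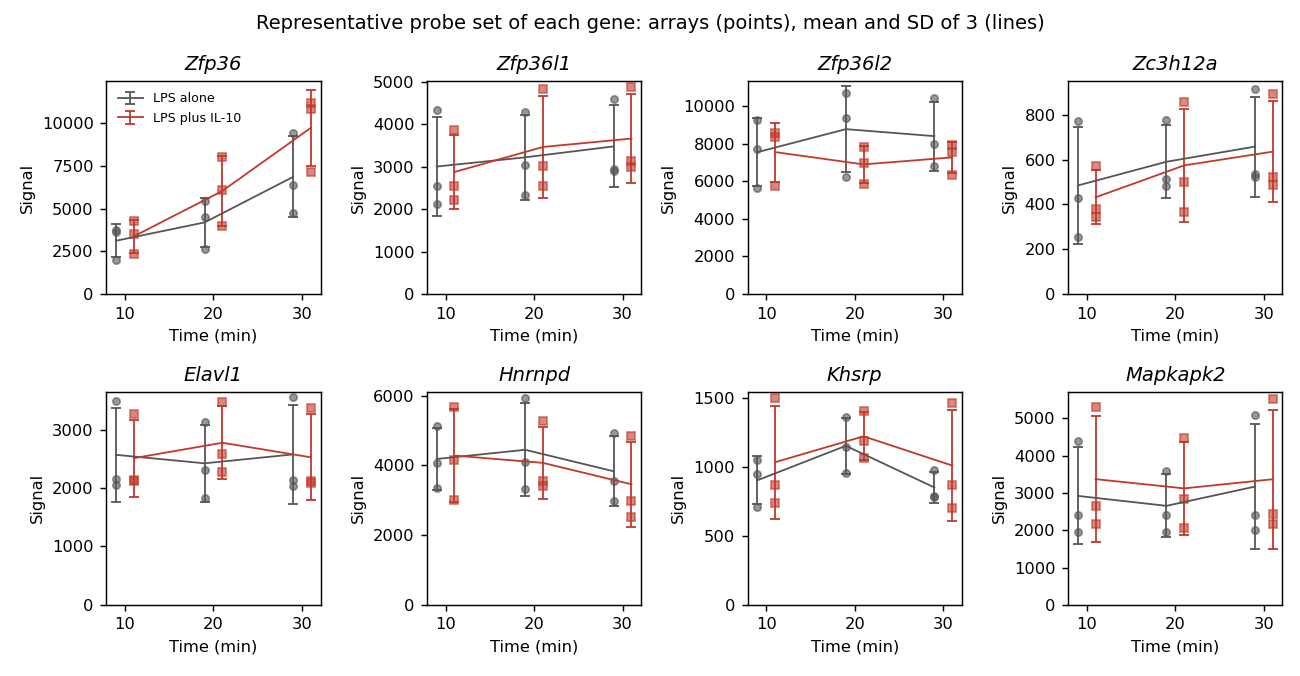
Signal (linear scale from 0) against time in min for the brightest tested probe set of each gene, with 1 point per array, grey circles for LPS alone and red squares for LPS plus IL-10, offset sideways for clarity. Lines and bars are the mean and SD of 3 arrays. Only the Zfp36 panel shows 10 and 30 min arrays that do not overlap in both treatments. In the Zfp36l1, Zc3h12a, Elavl1, Hnrnpd and Mapkapk2 panels a single experiment sits above the others at every time.

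No probe set of the mRNA-binding protein genes Elavl1, Hnrnpd and Khsrp was called between times or treatments. In any comparison at most 0.35% of all probe sets rose and 0.0848% fell, so no call among these few is near the share of all. Elavl1 read 3495, 2060 and 2160 at 10 min and 3562, 2039 and 2136 at 30 min with LPS alone, and 3274, 2123 and 2146 and then 3378, 2093 and 2117 with LPS plus IL-10. The pairs of values from an experiment were close, and experiment 1 was the highest in every group. The average difference from 10 to 30 min was 0.00022 (-0.15 to 0.15 with the block, -0.44 to 0.44 without). A change of more than 0.15 in either direction on the log2 scale thus lay outside the blocked interval, though not outside the other. A second bright Elavl1 probe set, at 785 to 3575, differed by -0.03 (-0.29 to 0.23). The 3 dimmer tested Elavl1 probe sets had signals of 11.9 to 175. The brightest of these, at the array's median on 16 of 18 arrays, differed by 0.43 (0.06 to 0.79 with the block), higher in 3 of 3 experiments and not called (adjusted p = 0.594 with the block). The other pair differed by 0.07 each.

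Hnrnpd, which encodes the AUF1 proteins, was the member with the lowest values at 30 min relative to 10 min. With LPS alone it read 5133, 4056 and 3355 at 10 min and 4940, 3563 and 2981 at 30 min. With LPS plus IL-10 it read 5674, 4146 and 3018 and then 4847, 2989 and 2530. All 6 pairs were lower at 30 min, by small amounts against the spread between experiments. The average difference was -0.23 (-0.40 to -0.05 with the block), and limma's adjusted p was 0.496 with the block and 1.00 without. Khsrp, whose product promotes decay of AU-rich mRNAs, had a difference of -0.05 (-0.33 to 0.23 with the block) on its brightest probe set, at 704 to 1502. Its other probe sets, at 295 to 1680 and 183 to 913, differed by 0.13 each. The brightest was higher at 20 min than at 10 min, by 0.35 with LPS alone and 0.30 with LPS plus IL-10, and then lower at 30 min than at 20 min, by -0.42 and -0.33. None of these was called (adjusted p = 0.575, 0.926, 0.361 and 0.737 with the block). The first step was 0.37, 0.01 and 0.68 by experiment with LPS alone and -0.09, 0.69 and 0.29 with LPS plus IL-10. With LPS alone, 2 of the 3 arrays at 20 min are the deviating ones, which also enter the differences with IL-10 over the times. Over the times the signals with IL-10 differed by 0.14, 0.43 and 0.28 on the 3 probe sets, the largest with an interval of 0.09 to 0.76 with the block (adjusted p = 1.00). The names of 2 of the 3 Khsrp probe sets carry the suffix that Affymetrix gives to sets that may bind related transcripts.

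Mapkapk2 varied between experiments more than between groups. With LPS alone its signal was 1954, 2412 and 4399 at 10 min, 1956, 2419 and 3589 at 20 min, and 2010, 2411 and 5093 at 30 min in experiments 1, 2 and 3. With LPS plus IL-10 it was 2161, 2646 and 5306, then 2050, 2834 and 4487, then 2161, 2429 and 5516. Experiment 3 was the highest in all 6 groups. In the sum of squares of log2 signal, 93.3% lay between experiments and 3.34% between groups. The difference from 10 to 30 min was 0.03 (-0.13 to 0.19 with the block). The signal with IL-10 was higher in 3 of 3 experiments at each time, by 0.15 averaged over the times (0.02 to 0.29 with the block), which did not pass (adjusted p = 1.00 in both fits). Without both deviating LPS arrays this was 0.11 with the block and 0.29 without it.

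**Figure D3:**
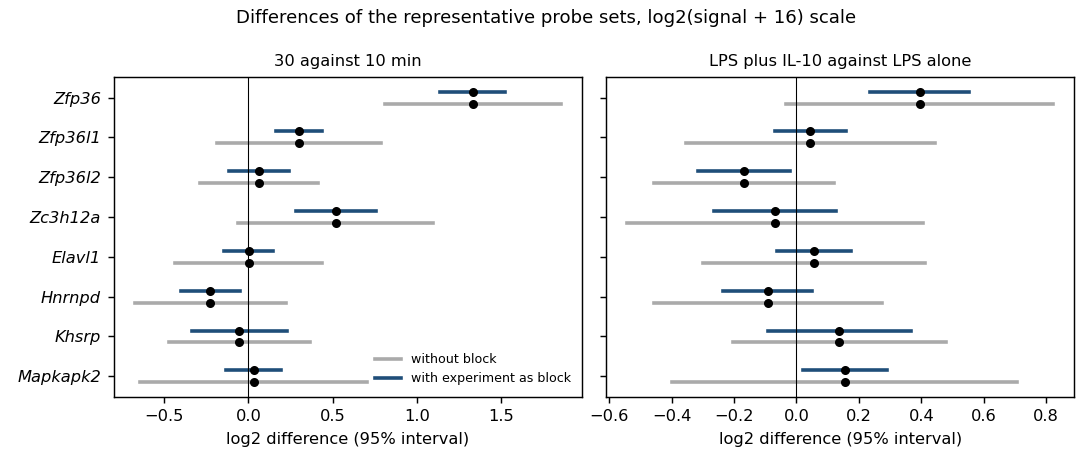
Log2 difference on the log2(signal + 16) scale with its 95% interval for the brightest tested probe set of each gene, from 10 to 30 min averaged over the treatments (left) and LPS plus IL-10 minus LPS averaged over the times (right). Blue bars are the blocked fit and grey bars the fit without a block. The blocked interval of Zfp36 on the left, 1.14 to 1.53, lies above the blocked intervals of the other 7 genes. Without the block it runs from 0.81 to 1.86 and overlaps that of Zc3h12a (-0.06 to 1.10). The intervals are not adjusted for the number of probe sets.

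The share of the sum of squares between experiments was 27.4% for Zfp36, with 69.3% between groups. For the other 7 genes it ran from 38.7% (Khsrp) to 93.3% (Mapkapk2), with 3.34% to 27.4% between groups. The experiments were not ordered alike: the mean Mapkapk2 signal was 2049, 2525 and 4731 in experiments 1, 2 and 3, that of Elavl1 3388, 2121 and 2191, and that of Zfp36 6036, 6819 and 3813. After each experiment's mean was taken out, Zfp36 correlated over the 18 arrays at 0.82 with Zfp36l1, at 0.70 with Zc3h12a and at -0.70 with Hnrnpd. With Elavl1 and Khsrp the correlations were 0.11 and 0.07. Zfp36l1 and Zc3h12a correlated at 0.74. These are descriptions over arrays that share experiments and times.

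The 6 genes outside the set whose brightest probe set followed Zfp36 most closely on that measure were Ier3 (r = 0.98), Ccl3 (0.94), Ccl4 (0.92), Socs3 (0.92), Ccl7 (0.90) and Pde4b (0.90), over 18 arrays. Ier3 is a stress-response gene, Ccl3, Ccl4 and Ccl7 are chemokine genes, Socs3 encodes an inhibitor of cytokine signalling and Pde4b a cAMP phosphodiesterase. From 10 to 30 min, averaged over the treatments, Ier3 differed by 1.75, Ccl3 by 1.25, Ccl4 by 1.12, Socs3 by 3.09, Ccl7 by 1.43 and Pde4b by 1.79 on the log2 scale.

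Among mRNAs known to be unstable, many of them bound by the proteins above, 18 of 22 listed genes were measured and 17 of these had higher signals after 30 min than after 10 (average over treatments). The median of their log2 differences was 1.12, against -0.03 for all 12527 genes, of which 41.0% were higher. With the block 12 rose and none fell, where 0.35% of all tested probe sets rose and 0.0848% fell. Without it 3 rose (Cxcl1, Cxcl2 and Ier3), where 0.0553% of all rose. Cxcl1 (2.62) and Cxcl2 (2.40), neutrophil chemokines, differed most. Ptgs2, the inducible cyclooxygenase, differed by 1.93, the cytokine genes Il1b by 1.85 and Tnf by 1.70, and Ier3 by 1.75. Ccl3 (1.25), Il10 (1.16), Ccl4 (1.12), the NF-kB regulator Nfkbiz (1.12), the chemokine Ccl2 (0.81) and the transcription factor Fos (0.74) rose with the block too. Without experiment 1 the blocked fit lost Fos (adjusted p = 0.359), and without experiment 2 it lost Fos (0.339), Ccl2 (0.361), Ccl4 (0.0750) and Ptgs2 (0.0651). The fit without a block lost Cxcl1 without experiment 1 or 2 (adjusted p = 0.783 and 0.215) and Cxcl2 without experiment 2 (0.0791). Ccnd1, a cyclin gene with a bright signal, differed by -0.16 and was not called. The list was put together with results of these data known, so its direction is not independent evidence.

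Tnf, the best-known target of tristetraprolin, rose by 2.26 from 10 to 30 min with LPS alone and by 1.15 with LPS plus IL-10 in the blocked fit (SE 0.23 each, limma adjusted p = 6.70e-05 and 0.0454), beside 1.13 and 1.54 for Zfp36. The fit without a block called neither (adjusted p = 1.00), and the second call was lost in the blocked fit without experiment 1 or 2 (0.264 and 0.696). At 30 min the difference in Tnf between LPS plus IL-10 and LPS was -0.86, by -0.05, -1.02 and -1.51 in experiments 1, 2 and 3. It was not called (adjusted p = 0.944 with the block). The change of this difference from 10 to 30 min was -1.11, by -0.03, -1.45 and -1.84, and was not called in either fit. The smaller rise of Tnf with IL-10 was therefore not shown to differ from that with LPS alone. In Cxcl1 the difference at 30 min was -0.81, lower in 3 of 3 experiments (adjusted p = 1.00). Others were higher in 3 of 3 experiments and not called either, Ccl4 by 0.82, Ier3 by 0.52 and Ccl3 by 0.45 (adjusted p = 1.00 with the block). The arrays of Ier3 did not overlap, where 2.05% of all probe sets were higher with IL-10 on every array. Of the 18 unstable mRNAs 10 were higher with IL-10 at 30 min (median 0.04), against 49.0% of all genes (median -0.0038). Il10 was the 1 that rose with the block (0.98, adjusted p = 0.0233), where 0.0443% of all probe sets rose. That call was lost without experiment 1 or 2 (adjusted p = 0.231 and 1.00) and in the fit without a block (1.00). The Il10 signal of these IL-10-/- cells ran from 602 to 3209. No source used here places its probes against the deleted part, so it checks nothing about the genotype.

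No gene of the decay enzymes themselves was called. Of 40 measured genes of deadenylation, decapping, 5′ exonucleases and the exosome, 13 had a higher signal at 30 min (median log2 difference from 10 min -0.05), and none passed in either fit. The LSm ring genes Lsm4 (-0.05) and Lsm3 (0.03), the exosome gene Exosc8 (-0.05) and the decapping helicase gene Ddx6 (0.02) were the brightest. Over all tested probe sets 0.35% rose and 0.0848% fell in this comparison with the block, and 0.0553% rose and 0.00369% fell without it. The absence of calls among 40 genes is near those shares. At an unadjusted p under 0.05, 738 of all tested probe sets differed in this comparison without the block and 1940 with it. Of 24 other measured RNA-binding and decay factors 10 were higher (median -0.01), and Btg2, an antiproliferative protein that binds the CCR4-NOT deadenylase, was the 1 that rose with the block (1.27, SE 0.22, adjusted p = 0.00804). The blocked call was lost without experiment 1 or 2 (adjusted p = 0.522 and 0.556), and without the block it was not called (0.144). The poly(A)-binding protein gene Pabpc1 differed by -0.11, Ybx1 by -0.04, Btg1, the paralog of Btg2, by 0.13 and Pcbp1 by -0.01.

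Of 20 measured genes of the p38-MK2 pathway, which acts on tristetraprolin, 7 were higher at 30 min (median -0.02). Dusp1, the phosphatase that switches p38 off, was the 1 that rose, by 1.72 (SE 0.10, adjusted p = 1.08e-08 with the block and 5.64e-05 without). Of all tested probe sets, 0.35% rose in this average with the block and 0.0553% without it. Dusp1 rose with LPS alone by 1.73 and with LPS plus IL-10 by 1.71 (adjusted p = 3.27e-06 and 2.40e-06 with the block). In those comparisons 0.107% and 0.195% of all probe sets rose with the block. The fit without a block lost the averaged call without experiment 2 (0.138). The brightest others were the 14-3-3 genes Ywhae (-0.09) and Ywhab (-0.02) and the PP2A subunit genes Ppp2r1a (-0.0034) and Ppp2ca (0.05), whose phosphatase acts on tristetraprolin, and they were not called.

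**Figure D4:**
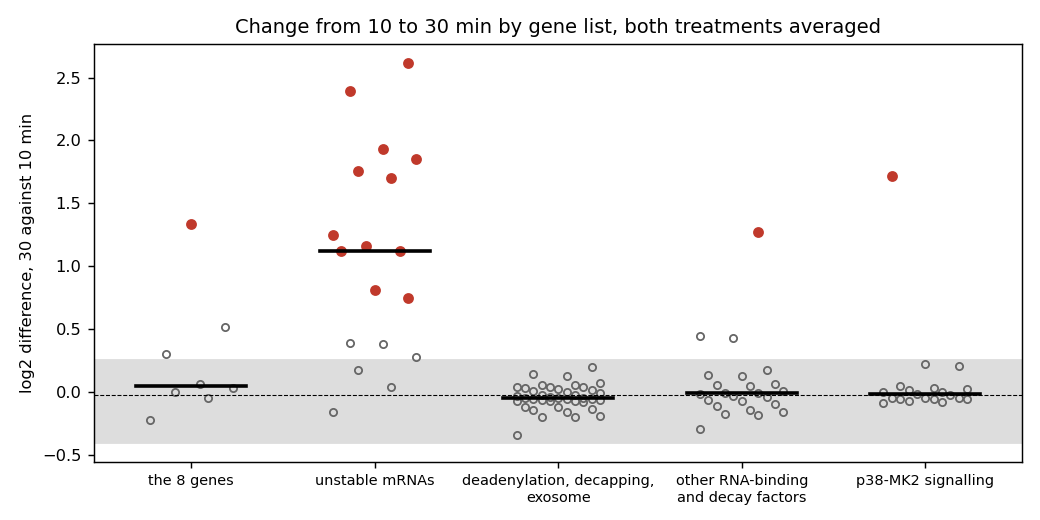
Log2 difference from 10 to 30 min, averaged over the treatments, for the brightest tested probe set of each gene in 5 lists. Each point is a gene, filled red where the blocked fit called it and open where it did not, black bars are list medians, the dashed line is the median of all 12527 genes (-0.03) and the grey band their 5th to 95th percentiles (-0.41 to 0.25). The medians are 1.12 for the unstable mRNAs and between -0.05 and 0.05 for the other 4 lists, in 3 of which a single gene (Zfp36, Btg2 or Dusp1) is red.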

How the data were processed

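Expression was measured in 18 mouse macrophage samples on single-colour Affymetrix arrays, 3 per group. The authors deposited linear signal intensities, made with GCOS 1.4 (submitters' processing notes); no source used here names the signal algorithm. After trimming 2% of values at both ends, the mean signal was 500.003 to 500.004 on each array. Detection calls were not used, so dim values may be background. Of 45101 probe sets, 34958 had 1 symbol in the platform annotation, 932 several and 9211 none, and 64 controls were left out.

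Values were analysed as log2(signal + 16), which understates changes of dim probe sets. Probe sets at or above the median signal of 3 or more arrays were tested (27110 probe sets). A gene is given by its brightest tested probe set (12527 genes). The main fit used limma 3.58.1 under R 4.3.3 (lmFit, then eBayes with a trend on intensity, two-sided), with a coefficient for every group and 12 residual degrees of freedom, for 12 comparisons. The procedure was tested on simulated data. The members and lists were chosen with earlier results of these data known. Genes of a list are named where either fit called them, with up to 4 of the brightest others.

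Per the labels' protocols, a replicate number marks a complete independent experiment. With group means taken out, arrays sharing a number correlated at 0.20 to 0.64 (45 pairs) and other arrays at -0.47 to 0.07 (90 pairs). The numbers therefore pair the samples, and a fit with the experiment as a block (10 residual degrees of freedom) stands beside the main one. No pair of arrays had over 104 equal probe sets. Alternatives were quantile normalization, pseudocounts of 1 and 64, no filter or one at the 75th percentile, no trend, only the arrays compared, and leaving out experiments or the deviating LPS 20 min arrays. The number of arrays limits the precision.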

Additional observations from a re-analysis of the deposited data

How the results depend on the processing

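Without the block, the count of called member probe sets was 0 in all 12 comparisons under the other normalization, pseudocounts, filters, trend and choice of arrays. In the average over treatments of 30 against 10 min it was 1 (Zfp36) without experiment 3 and 1 without the LPS 20 min array of experiment 3, and leaving out 1 experiment gave 0 to 1. With the replicate block it was 1 (Zfp36) for 30 against 10 min with LPS alone, with LPS plus IL-10 and in the average, also after quantile normalization and without experiment 1, 2 or 3. For 20 against 10 min with LPS plus IL-10 it was 1, also after quantile normalization, and 0 without any 1 experiment. Without the LPS 20 min array of experiment 2 these counts were 1. Without that of experiment 3 the count in the average was 3 (Zfp36, Zfp36l1 and Zc3h12a) and the other counts were 1. The LPS 20 min arrays are not among those compared in these counts, and leaving them out changed only the estimate of the spread and the adjustment. The block changed no other count of member calls.

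Zfp36 had a positive difference in all 12 comparisons under 21 alternatives, 1.25 to 1.46 for the average of 30 against 10 min. Signs turned in values near 0 that were not called. For 30 against 10 min, averaged, Elavl1 was -0.012 after quantile normalization with and without the block. Leaving out 1 experiment gave -0.018 to 0.0091 for Elavl1, -0.15 to 0.030 for Khsrp, -0.011 to 0.17 for Zfp36l2 and -0.021 to 0.077 for Mapkapk2. For the IL-10 effect over the times it gave -0.033 to 0.24 for Khsrp and -0.011 to 0.092 for Elavl1. Without the LPS 20 min array of experiment 2, Elavl1 was -0.0052 and Zc3h12a 0.0015, and without that of experiment 3 Zc3h12a was -0.096. Without both, Elavl1 was -0.078 and Zc3h12a 0.016. The cause was not tested.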

Other observations

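The dimmest tested Elavl1 probe set was the 1 member whose arrays did not overlap between the treatments at 30 min, at 69.5, 87.3 and 56.0 with LPS and 16.4, 11.9 and 13.4 with LPS plus IL-10, where 2.76% of all probe sets were lower on every array. It reached the array's median on 3 of 18 arrays, all of them with LPS alone. It was thus tested only through the treatment in which it was higher, so its difference is not independent of the filter. The log2 difference was -1.53 (limma adjusted p = 1.00 with and without the block), and the bright Elavl1 probe set differed by -0.02 there.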
